A study of Mus musculus with 26 samples.

Results

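The comparison described here sets mouse neural stem cells that over-expressed MYBQKI6 against cells that carried eGFP, a green fluorescent protein used as the control. It takes in 9 of the 26 arrays of the series: 3 MYBQKI6 arrays, 1 from each of pools 1, 2 and 3, and 6 eGFP arrays, with 2 repeats in each of the same pools. The repeats of a pool were averaged, and MYBQKI6 and eGFP were paired by pool number. All 23152 genes measured by probe sets that named 1 gene were described.

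Every cell in the comparison had a C57BL6 wild-type genotype and came from an embryo at E14.5, and lentivirus delivered the transgene, eGFP included. The labels do not say whether a pool stands for separate animals or cultures, so the p-values reflect only the spread among these arrays, which may be technical. They also do not give the species of the fusion sequence, its breakpoint, the promoter that drove it or the time after infection. RNA was read on Affymetrix arrays, and values are on a log2 scale, where a difference of 1 is a doubling of signal. The medians of the 9 arrays lay between 5.64 and 5.74, and precision is limited by how many arrays there are. In bulk RNA, fewer cells of a type and less RNA per cell cannot be told apart.

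MYB is a DNA-binding transcription factor of blood and other progenitor cells, and it activates genes of growth and survival such as the receptor Kit. QKI, encoded in the mouse by Qk, is a STAR family protein that binds RNA and controls splicing and RNA stability in glia. Fusions of MYB to QKI are the defining lesion of angiocentric glioma, a tumour of children and young adults, and the fusion keeps the DNA-binding part of MYB. MYBQKI6 carries the name of one of the QKI splice forms, which differ at their carboxyl ends.

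Signal rose over the probe sets of Myb, and no change was detected over those of Qk. Myb stood at 7.10, 7.89 and 7.38 in MYBQKI6 cells of pools 1, 2 and 3, against 4.30, 4.37 and 5.18 in eGFP cells. The groups did not overlap, and Myb rose by 2.84 (SE 0.21, 7.16-fold, adjusted p = 9.53e-06). Single probe sets differed widely around this gene mean. Of 18 Myb probe sets, 17 were higher with MYBQKI6 and 7 were called over all probe sets, with differences from -0.02 to 5.72. Probe set 17239679 read 12.82, 12.39 and 11.91 in MYBQKI6 cells, against 6.57, 6.18 and 7.21 in eGFP cells. Which probe sets lie in the part of MYB that the fusion holds was not tested, nor was the signal of the fusion separated from that of the cells' own Myb. Qk stood at 10.49, 10.79 and 10.74 in MYBQKI6 cells, against 10.95, 10.78 and 10.61 in eGFP cells. Its groups overlapped, the difference was -0.11 (SE 0.16, adjusted p = 0.872), and the sign turned to 0.04 without MYBQKI6 of pool 1. None of 15 Qk probe sets was called, and their differences ran from -0.51 to 0.30.

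**Figure D1:**
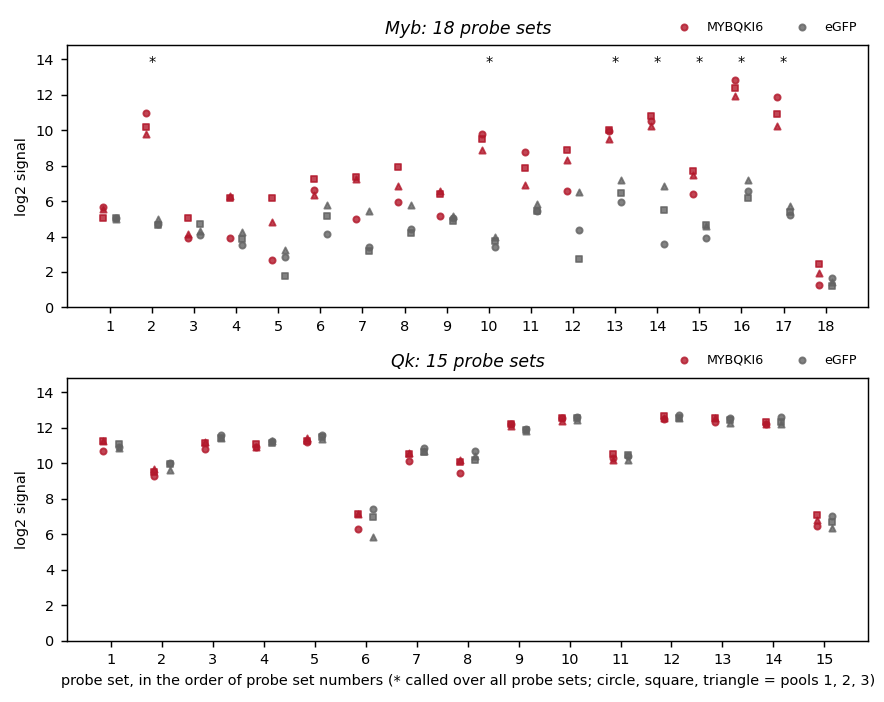
Log2 signal of each probe set of Myb (top) and Qk (bottom) in MYBQKI6 cells (red) and eGFP cells (grey), with 1 point per pool, the eGFP repeats averaged. Stars mark the 7 Myb probe sets called over all probe sets, and no Qk probe set has one.

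MYBQKI6 changed the signal of 1015 of 23152 genes (4.38%). Called stands for this throughout: a limma fit of all 5 constructs with the pool as a block and a Benjamini-Hochberg adjusted p under 0.05. Of the called genes, 554 (2.39% of those tested) rose and 461 (1.99%) fell. The rises were larger: 203 rises and 104 falls were at least 2-fold, and 34 rises but 0 falls were at least 4-fold. All 1015 genes moved the same way in 3 of 3 pools, and in 792 of them the MYBQKI6 and eGFP pools did not overlap. Among all genes, 6.62% lay wholly above and 6.51% wholly below their eGFP values. Genes that rose had a median log2 signal of 7.34 in MYBQKI6 cells and 6.32 in eGFP cells, and genes that fell had medians of 6.54 and 7.33 in the same order, while the median gene stood at 5.00 and 4.99. The median difference over all genes was -0.0049. Counts within gene lists, given below, were not tested against the 4.38% called among all genes.

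**Figure D2:**
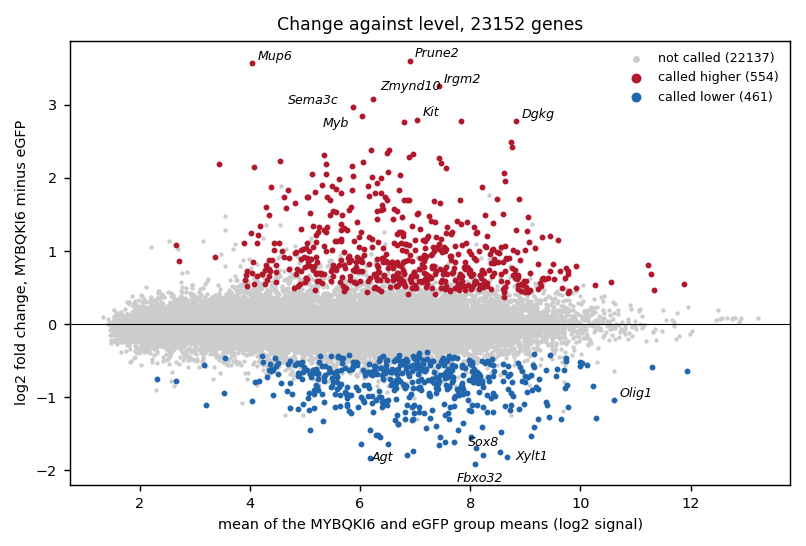
Log2 fold change, MYBQKI6 minus eGFP, against the mean log2 signal of the groups, with 1 point per gene. The 554 genes called higher (red) reach farther from 0 than the 461 called lower (blue), and 22137 genes were not called (grey).

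The pools did not contribute alike. The called genes had a median absolute difference of 0.86 in pool 1, 0.945 in pool 2 and 0.578 in pool 3, against 0.201, 0.172 and 0.163 for all genes. The smallest of the 3 differences came from pool 3 in 704 of the 1015 genes, from pool 1 in 214 and from pool 2 in 97. Pool 3 also stood apart in genes of G2 and M phase, which had a median log2 signal of 7.46 in MYBQKI6 cells and 7.64 in eGFP cells. In pool 1 these medians were 4.96 and 4.74, and in pool 2 they were 6.05 and 5.74. Whether the cycling state of a pool plays a part in its smaller response was not tested. The count of called genes was 177 without the block, 440 and 291 when MYBQKI6 of pool 1 or pool 2 was left out, and 448, 393 and 668 when eGFP of pool 1, 2 or 3 was. It was 51 without pool 2 of every group and 183 without pool 1 of every group.

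The 15 largest named rises ran from 5.06-fold to 12.1-fold and were in genes of varied roles. Prune2, which encodes a large BCH domain protein of neurons, stood at 8.82, 8.97 and 8.30 in MYBQKI6 cells, against 4.87, 5.44 and 4.98 in eGFP cells. No MYBQKI6 pool came near any eGFP pool, and Prune2 rose by 3.60 (SE 0.22, 12.1-fold, adjusted p = 3.39e-06). All 19 of its probe sets were higher, and 15 of them were called. Zmynd10, a factor that assembles the dynein arms of motile cilia, stood at 7.57, 8.10 and 7.67 in MYBQKI6 cells, against 4.32, 4.39 and 5.37 in eGFP cells. It rose by 3.08 (SE 0.27, 8.49-fold, adjusted p = 5.98e-05), again with no overlap. Dgkg, a kinase that turns diacylglycerol into phosphatidic acid, stood at 10.51, 10.50 and 9.64 in MYBQKI6 cells, against 7.41, 7.39 and 7.54 in eGFP cells. It was well expressed in both groups and rose by 2.77 (SE 0.24, 6.84-fold, adjusted p = 5.98e-05). Mcub, a subunit that inhibits the mitochondrial calcium uniporter, rose by 2.77 (adjusted p = 2.38e-04), or 1.56 by its brightest probe set. Sema3c, a secreted guidance factor, stood at 8.40, 8.48 and 5.20 in MYBQKI6 cells, against 4.68, 4.62 and 3.87 in eGFP cells. Pool 3 lay far below the other MYBQKI6 pools, so the rise of 2.97 had an SE of 0.65 (adjusted p = 0.0187) and was not called in every fit without 1 pool.

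Smaller changes with little spread between pools were also among the firmest. Anks1, which encodes an ankyrin repeat and SAM domain protein, stood at 8.56, 8.61 and 8.71 in MYBQKI6 cells, against 6.41, 6.39 and 6.70 in eGFP cells. Its rise of 2.13 had an SE of 0.14 (adjusted p = 3.39e-06). Kif26b, of the kinesin family, rose by 2.38 (adjusted p = 7.22e-05), Wasf3, an actin regulator of the WAVE family, by 1.70 (adjusted p = 7.00e-05), and Arid5a, an RNA-binding protein, by 1.55 (adjusted p = 6.22e-05). Gper1, a membrane receptor for oestrogen, rose by 2.32 (adjusted p = 9.06e-05), although its pools overlapped between groups. Its values were 6.81, 8.56 and 8.98 in MYBQKI6 cells, against 4.88, 5.60 and 6.91 in eGFP cells, so that each pool rose from its own level. Without the block its adjusted p was 0.30. Piwil4, a PIWI protein that binds small RNAs of the germ line, rose by 1.74 as a gene but by 5.50 in its brightest probe set, and 19 of its 24 probe sets were higher. Tcirg1, a subunit of the vacuolar proton pump, rose by 2.38 (adjusted p = 4.80e-04), and Frat2, a GSK3-binding regulator of Wnt signalling, by 2.34 (adjusted p = 0.00185). Mup6, a major urinary protein, rose by 3.57 (SE 0.64, adjusted p = 0.00628) from eGFP values of 2.64, 2.14 and 2.01, below percentile 25 of every array, so its size is uncertain. Its family holds many nearly identical copies, and cross-hybridisation of its 3 probe sets was not tested. Of the 15 genes with the largest rises, 14 stayed past the threshold whichever pool of MYBQKI6 or of eGFP was omitted, and 9 were called without the block.

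**Figure D3:**
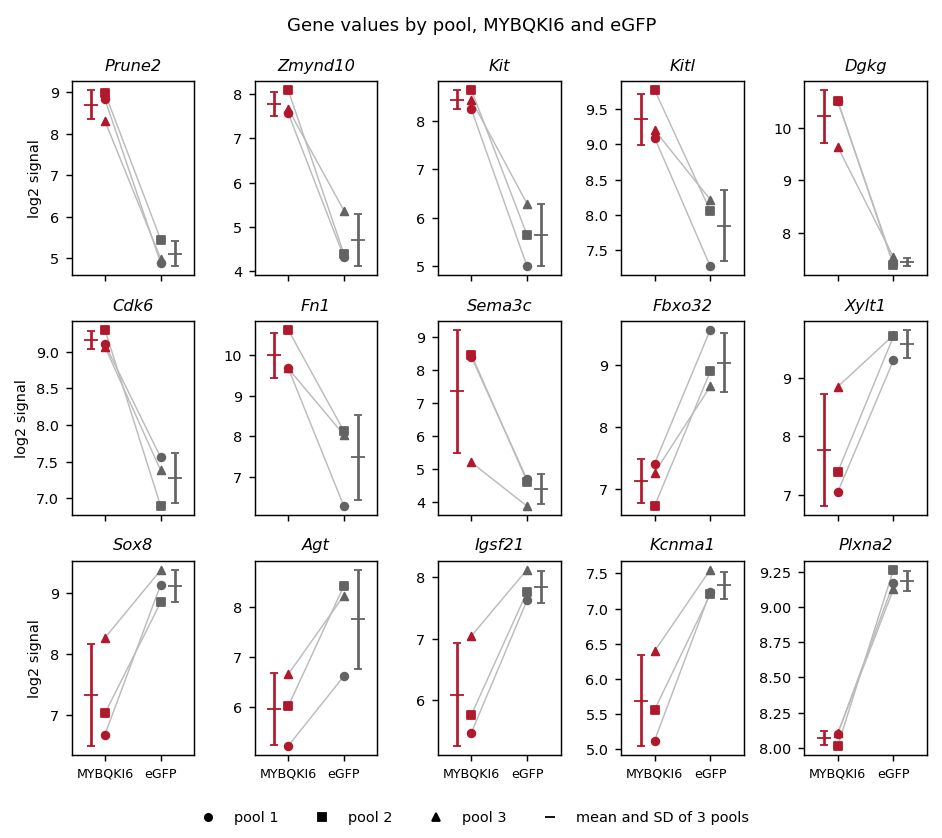
Log2 signal of 15 genes in MYBQKI6 cells (red, left) and eGFP cells (grey, right), each panel with its own axis range. Symbols stand for pools, lines join a pool, and bars give the mean and SD of 3 pools. In Sema3c and in the falling genes Xylt1, Sox8, Igsf21 and Kcnma1 the MYBQKI6 value of pool 3 lies closest to eGFP.

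Falls were more even in size, and 10 of the 15 largest, from 2.89-fold to 3.78-fold, were called in every fit without 1 pool of MYBQKI6 or of eGFP. Fbxo32, the atrogin ubiquitin ligase subunit and a target of FoxO factors, stood at 7.40, 6.72 and 7.26 in MYBQKI6 cells, against 9.57, 8.90 and 8.66 in eGFP cells. It fell by 1.92 (SE 0.22, 3.78-fold lower, adjusted p = 4.01e-04). Plxna2, a semaphorin receptor, stood at 8.10, 8.01 and 8.10 in MYBQKI6 cells, against 9.17, 9.26 and 9.13 in eGFP cells. This tight separation gave the smallest p among the named falls (-1.11, SE 0.11, adjusted p = 1.31e-04). Igsf21, a synaptic adhesion protein, stood at 5.48, 5.77 and 7.04 in MYBQKI6 cells, against 7.62, 7.76 and 8.11 in eGFP cells, and fell by 1.73 (adjusted p = 4.80e-04). Ptgds, which makes prostaglandin D2, fell by 1.65 (adjusted p = 0.00123), but its brightest probe set differed by -0.27. Ednrb, the endothelin B receptor, fell by 1.54 (adjusted p = 0.00435), and Adcyap1r1, the receptor for the neuropeptide PACAP, fell by 1.70 (adjusted p = 0.0276) with overlapping pools. Smoc1, a calcium-binding matrix protein, fell by 1.75 (adjusted p = 0.0214), and Adgrg1, an adhesion receptor of neural progenitors, by 1.53 (adjusted p = 0.0164). Adcyap1r1, Smoc1, Adgrg1, Cntn1 and Ppfibp2 lost the call in at least 1 fit without a pool. Cyp2j9, an epoxygenase of arachidonic acid, fell by 1.64 (adjusted p = 0.00117), and Ank, a pyrophosphate transporter, by 1.18 (adjusted p = 8.75e-04). Without the block 6 of the 15 largest falls were called.

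Targets described for MYB in blood cells rose in part. Of 17 measured, 5 rose, 3 fell and 9 were not called, with a median of 0.06. The rises numbered 4 or 5 in each fit that left out 1 pool of MYBQKI6 or of eGFP, but the falls were 0 without MYBQKI6 of pool 1 or 2, without eGFP of pool 2 and without the block. Kit stood at 8.24, 8.64 and 8.43 in MYBQKI6 cells, against 4.99, 5.64 and 6.28 in eGFP cells, and rose by 2.80 (SE 0.18, 6.95-fold, adjusted p = 3.39e-06). Its ligand Kitl, stem cell factor, rose too. It stood at 9.10, 9.77 and 9.20 in MYBQKI6 cells, against 7.27, 8.06 and 8.22 in eGFP cells, a rise of 1.51 (SE 0.17, 2.84-fold, adjusted p = 3.15e-04). Cdk6, a kinase of the G1 phase, stood at 9.10, 9.30 and 9.07 in MYBQKI6 cells, against 7.56, 6.89 and 7.38 in eGFP cells, and rose by 1.88 (SE 0.20, adjusted p = 2.38e-04). Cited2, a partner of the coactivators CBP and p300, rose by 1.15 (adjusted p = 0.00264) and Bcl2, which blocks apoptosis, by 0.88 (adjusted p = 0.0189). Ada, adenosine deaminase, rose by 1.16 (adjusted p = 0.00114), but its brightest probe set differed by -0.08. Myc, a growth regulator, fell by 0.94 (adjusted p = 0.0114), Ets1 by 0.87 (adjusted p = 0.0188) and Mat2a by 0.53 (adjusted p = 0.0280). Markers of blood cells themselves were not called in any of 9 measured genes, with a median of -0.03. Of MYB relatives and the MuvB complex, which regulates the cell cycle, 2 of 15 rose: Myb and Mybl1 (0.50, adjusted p = 0.0324). Signal of the fusion was not told apart from the cells' own Myb, so only Mybl1 can count as a response here. The count fell to 1 without MYBQKI6 of pool 1 or 2, eGFP of pool 2 or 3, or the block. It was also 1 with the median or the brightest probe set per gene.

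Genes of the cell cycle were mostly not called. None of 20 S phase genes was called (median 0.11, range -0.28 to 0.31) and none of 19 genes of G2 and M phase (median 0.00, range -0.25 to 0.60). Among 16 genes of the G1 machinery, Cdk6 rose and Ccnd3, a D-type cyclin, fell by 0.52 (adjusted p = 0.0130).

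Genes induced by interferon, the cytokine of antiviral defence, were higher as a whole list. All 23 measured members were positive, with a median of 1.18 against -0.0049 for all genes, and 9 rose over all genes while 0 fell. Ifih1, a sensor of double-stranded RNA, stood at 10.16, 10.17 and 8.52 in MYBQKI6 cells, against 8.31, 8.44 and 6.21 in eGFP cells, and rose by 1.96 (SE 0.36, adjusted p = 0.00726). Isg15, a ubiquitin-like modifier, stood at 8.22, 8.47 and 6.78 in MYBQKI6 cells, against 7.00, 7.24 and 4.67 in eGFP cells, and rose by 1.52 (SE 0.32, adjusted p = 0.0156). Both genes were lowest in pool 3 in both groups, and the difference lay within each pool. Stat2, which carries the interferon signal to the nucleus, stood at 9.12, 9.58 and 8.63 in MYBQKI6 cells, against 7.77, 8.10 and 7.31 in eGFP cells, with no overlap, and rose by 1.38 (SE 0.23, adjusted p = 0.00382). Irf7, which amplifies the interferon response, rose by 1.55 (adjusted p = 0.00998), Oas1a by 1.30 (adjusted p = 0.0153) and Oas2, by its gene mean but not by its brightest probe set (-0.24), by 1.14 (adjusted p = 0.00583). Ifit1, Oasl2 and Rsad2 rose by 1.71, 1.65 and 1.23 (adjusted p = 0.0324, 0.0345 and 0.0158). Usp18, Ifi44 and Mx1 differed by 1.76, 1.38 and 1.18 and were not called (adjusted p = 0.0801, 0.177 and 0.0582).

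Outside that list, Irgm2 and Igtp were among the 15 largest rises. They are neighbouring genes of chromosome 11 that encode immunity-related GTPases, which act against parasites in vacuoles and are induced by interferon gamma. Irgm2 stood at 9.59, 10.15 and 7.43 in MYBQKI6 cells, against 5.88, 6.69 and 4.84 in eGFP cells, a rise of 3.25 (SE 0.39, 9.53-fold, adjusted p = 4.80e-04). Igtp stood at 9.69, 9.97 and 8.03 in MYBQKI6 cells, against 6.94, 7.12 and 5.29 in eGFP cells, a rise of 2.78 (SE 0.23, 6.87-fold, adjusted p = 3.46e-05). The groups were apart in both genes, and the pools again ran in the same order. Irgm2 rests on 2 probe sets, and cross-hybridisation within the family was not tested.

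Among 22 chemokines and cytokines, 5 rose and 0 fell, with a list median of 0.06. Cxcl10, an interferon-induced attractant of T cells, stood at 8.85, 9.94 and 6.93 in MYBQKI6 cells, against 6.46, 7.62 and 5.03 in eGFP cells, and rose by 2.20 (SE 0.37, adjusted p = 0.00452). Ccl5 rose by 2.07 (adjusted p = 0.0104) and Ccl2 by 1.56 (adjusted p = 0.0451). Il33, an alarm cytokine of glia, rose by 1.93 (adjusted p = 0.0294), and Ackr3, a scavenger receptor for Cxcl12, by 2.00 (SE 0.23, adjusted p = 4.44e-04). Of these, Ackr3 was the one still called without the block (adjusted p = 0.0067). None of the 9 interferon genes was called without the block. The count of 9 was 5, 1 and 6 without MYBQKI6 of pools 1, 2 and 3 and 4, 7 and 4 without eGFP of these pools, 16 with MYBQKI6 and eGFP fitted alone, 3 with the brightest probe set per gene and 6 with their median. The 5 rises among chemokines and cytokines became 2 without MYBQKI6 of pool 1 or 2 or eGFP of pool 1. They numbered 3 when eGFP of pool 2 was left out and 1 without the block. Irgm2 and Igtp had adjusted p values of 0.078 and 0.072 without the block. The median of the interferon list was 7.56, 8.20 and 6.78 in MYBQKI6 cells of pools 1, 2 and 3, against 7.00, 7.24 and 5.16 in eGFP cells, so the eGFP pools differed among themselves by more than the list rose. Of 13 markers of microglia and immune cells, 0 rose and 1 fell, Cd68 (-1.10, adjusted p = 0.00341), and 11 lay below the median gene in eGFP cells. Their medians were 4.53, 4.55 and 4.61 in MYBQKI6 cells and 4.44, 4.33 and 4.34 in eGFP cells.

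**Figure D4:**
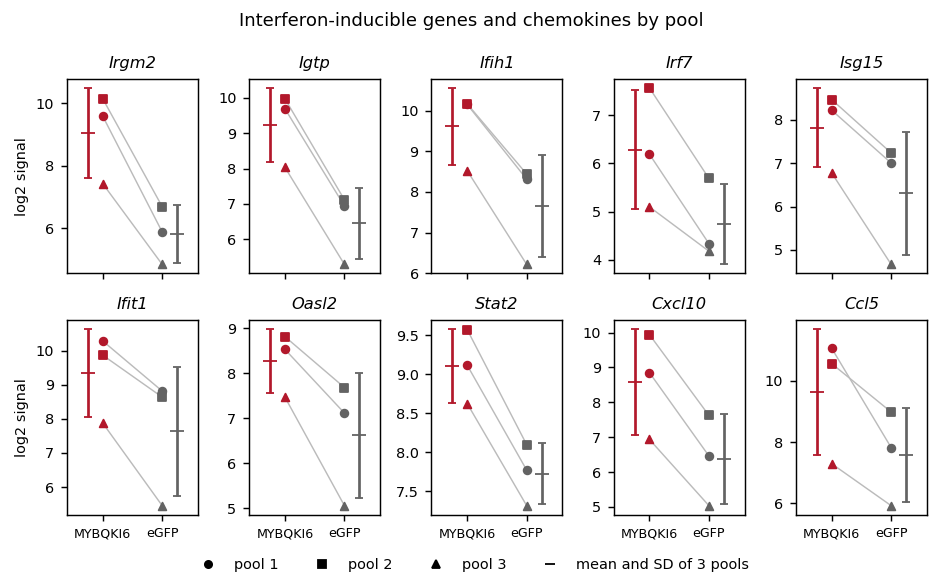
Log2 signal of 8 interferon-induced genes and of the chemokines Cxcl10 and Ccl5 in MYBQKI6 cells (red, left) and eGFP cells (grey, right), each panel with its own axis range. Lines join a pool and bars give the mean and SD of 3 pools. Every line runs down to the right, and the triangles of pool 3 lie lowest in each panel and group.

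Promoters of some genes that rose in this response are shown. They were picked because they hold the interferon-stimulated response element (ISRE), to which STAT2 complexes and IRF factors bind. The search used TTTC, any 2 bases and TTTC again, on both strands, in the 250 bases before each start in RefSeq (GRCm38.p6). The element was present in 9 of 24 windows of the interferon list (37.5%), in 2.91% of 21488 windows of all genes tested, in 6.15% of those of genes that rose and in 1.89% of those of genes that fell. The list is made of interferon-induced genes, and its called members are also among the genes that rose. Neither share is therefore separate evidence about this comparison. A match is a stretch of letters, not a measured site. Each line runs 5′ to 3′ on the strand of the gene, and capitals mark the matches.
Irgm2 (chr11:58214727-58214976, plus strand): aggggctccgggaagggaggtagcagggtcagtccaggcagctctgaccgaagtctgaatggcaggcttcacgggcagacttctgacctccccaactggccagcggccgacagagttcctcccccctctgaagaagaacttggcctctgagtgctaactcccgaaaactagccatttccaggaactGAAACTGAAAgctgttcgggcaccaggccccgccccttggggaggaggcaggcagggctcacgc
Igtp (chr11:58199306-58199555, plus strand): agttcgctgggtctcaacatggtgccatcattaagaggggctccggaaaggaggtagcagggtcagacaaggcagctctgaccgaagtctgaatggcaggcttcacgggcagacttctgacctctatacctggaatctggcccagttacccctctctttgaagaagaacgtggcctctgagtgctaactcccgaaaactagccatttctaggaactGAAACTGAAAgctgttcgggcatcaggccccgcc
Ifit1 (chr19:34640639-34640888, plus strand): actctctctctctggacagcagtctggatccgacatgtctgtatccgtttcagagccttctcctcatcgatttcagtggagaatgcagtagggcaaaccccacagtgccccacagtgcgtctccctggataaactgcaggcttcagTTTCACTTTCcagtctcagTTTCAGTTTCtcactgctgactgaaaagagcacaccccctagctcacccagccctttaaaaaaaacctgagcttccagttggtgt
Isg15 (chr4:156200819-156201068, minus strand): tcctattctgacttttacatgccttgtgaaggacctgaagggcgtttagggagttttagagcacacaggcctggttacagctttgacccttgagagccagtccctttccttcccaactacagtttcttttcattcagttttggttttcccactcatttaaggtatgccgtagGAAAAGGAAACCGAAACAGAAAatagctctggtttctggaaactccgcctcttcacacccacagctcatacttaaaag
The Irgm2 and Igtp windows each hold 1 match, inside an identical run of 29 bases, and their longest identical run, of 55 bases, lies elsewhere and holds none. Ifit1 holds 2 matches, and Isg15 holds 3 that overlap one another. The window of Oasl2 holds none. The interferon gamma-activated site, searched as TTCNNNGAA, was present in 20.8% of windows of the list and 6.65% of all windows, against 5.81% for genes that rose. It overlapped an ISRE match in 12 windows. The Irgm2 and Igtp windows hold 1 match to it each, not put in capitals, and those of Ifit1 and Isg15 hold none.

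The core sequence bound by MYB was searched in the same windows as the hexamer CAACTG, its variant TAACTG, the further form CAACGG and its variant TAACGG, on both strands. It was present in 25.3% of windows of genes that rose, 17.2% of those of genes that fell, 33.3% of those of the interferon list (8 of 24) and 22.4% of all, so most matches belong to genes that were not called. It overlapped an ISRE match in 2 windows. The Irgm2, Igtp and Ifit1 windows printed above hold 1 match each. The windows of Prune2, Kit and Zmynd10 hold none, and those of Prelp and Kif26b hold 1 each, shown with the match in capitals.
Prelp (chr1:133921402-133921651, minus strand): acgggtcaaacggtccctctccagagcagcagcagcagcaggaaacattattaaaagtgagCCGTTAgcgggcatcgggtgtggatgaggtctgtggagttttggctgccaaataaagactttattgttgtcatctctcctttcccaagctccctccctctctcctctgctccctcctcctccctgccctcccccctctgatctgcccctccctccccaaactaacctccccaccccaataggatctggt
Kif26b (chr1:178528875-178529124, plus strand): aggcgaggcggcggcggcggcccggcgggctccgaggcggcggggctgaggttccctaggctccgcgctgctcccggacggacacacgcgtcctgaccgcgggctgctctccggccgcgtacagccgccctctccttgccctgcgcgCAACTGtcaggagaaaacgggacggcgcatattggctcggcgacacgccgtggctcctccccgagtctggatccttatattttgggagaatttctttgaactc
These windows cover only the bases next to the annotated start, and binding was not measured.

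Among matrix genes, single large rises stood beside several smaller falls. Fn1, fibronectin, stood at 9.68, 10.61 and 9.66 in MYBQKI6 cells, against 6.29, 8.13 and 8.04 in eGFP cells. The groups did not overlap, all 41 of its probe sets were higher, and Fn1 rose by 2.50 (SE 0.37, 5.64-fold, adjusted p = 0.00210). Of the other 25 collagens, laminins and matrix glycoproteins measured with it, only Sparc was called (-0.74, adjusted p = 0.0277). Integrins, the receptors for such matrix, split: Itga5, part of the main fibronectin receptor, rose by 1.26 (adjusted p = 0.00452), Itga9 by 0.85 (adjusted p = 0.0189) and Itga3 by 0.73 (adjusted p = 0.00621). Itgb8, which activates TGF-beta, fell by 0.89 (adjusted p = 0.0290) and Itga4 by 0.69 (adjusted p = 0.00997), and 11 of 16 were not called. The brightest probe set of Itga3 differed by -0.43. Both integrin falls were lost without MYBQKI6 or eGFP of pool 1 or 2, and none of the 5 integrins was called without the block or by the brightest probe set. Among 30 genes of proteoglycans and hyaluronan, 2 rose and 5 fell. Prelp, a leucine-rich proteoglycan that anchors basement membranes, stood at 10.36, 9.78 and 9.80 in MYBQKI6 cells, against 6.98, 7.70 and 7.97 in eGFP cells, and rose by 2.43 (SE 0.30, adjusted p = 5.68e-04). Tnfaip6, which links hyaluronan chains, rose by 2.27 (adjusted p = 0.00121). Xylt1, which starts the sugar chains of proteoglycans, stood at 7.05, 7.39 and 8.84 in MYBQKI6 cells, against 9.29, 9.70 and 9.72 in eGFP cells, and fell by 1.81 (SE 0.30, adjusted p = 0.00436). The core proteins Cspg4, Cspg5, Sdc3 and Gpc1 fell by 1.36, 1.17, 1.09 and 0.65. Ogn, another leucine-rich proteoglycan, differed by 1.89 and was not called (adjusted p = 0.0789). Of 23 proteases and inhibitors, 0 rose and 4 fell, beside 1.99% called lower among all genes: Adamts9, Mmp15, Adamts12 and Mmp2, by 1.17, 0.94, 0.81 and 0.75. The 5 proteoglycan falls became 3 without MYBQKI6 or eGFP of pool 1 or 2 and 1 without the block, and the 2 rises became 4 without MYBQKI6 of pool 3. The 4 protease falls became 2 without MYBQKI6 of pool 2 or eGFP of pool 1 or 2 and 0 without the block.

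Adhesion and guidance genes held rises and falls, and the counts changed when 1 pool of a group was left out. Of 25 cadherins and other adhesion molecules, 5 rose and 5 fell, with a median of -0.02. Cdh6 rose by 1.26 (adjusted p = 0.0249), Cadm1 by 0.95 (adjusted p = 0.00466), and Cdh2, the N-cadherin of neural progenitors, by 0.69 (adjusted p = 0.0110). Cntn1, a contactin of axons and glia, stood at 6.03, 6.27 and 7.72 in MYBQKI6 cells, against 8.12, 7.78 and 8.74 in eGFP cells, and fell by 1.54 (SE 0.28, adjusted p = 0.00717). Pcdh15 fell by 1.14 (adjusted p = 0.0106) and Ncam2 by 0.75 (adjusted p = 0.00323). Cdh10, named for its small p, fell by 1.36 (adjusted p = 5.79e-04). Of 35 guidance genes, 3 rose and 4 fell. The ligands Sema3c and Efnb2 (0.78) and the co-receptor Nrp1 (0.88) rose, and the receptors Plxnb3, Plxna2, Robo1 and Robo2 fell by 1.17, 1.11, 0.88 and 0.79. The guidance rises became 0 without the block, MYBQKI6 of pool 1 or 2, or eGFP of pool 2. They numbered 1 with eGFP of pool 1 omitted and 5 with MYBQKI6 of pool 3 omitted, while 3 or 4 falls were called in each fit without 1 pool of either group. Of the adhesion genes 1 rose and 1 fell without MYBQKI6 of pool 2 and without the block, and 1 rose and 3 fell without MYBQKI6 of pool 1. Leaving out eGFP gave 1 rise and 2 falls for pool 1 and 3 rises and 2 falls for pool 2, and none was called by the brightest probe set.

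Receptors for growth factors held called genes of both signs, in a balance that changed when 1 pool of a group was left out. Of 26 receptor tyrosine kinases, 2 rose and 6 fell, with a median of -0.08. Among all genes 2.39% were called higher and 1.99% lower. The count was 2 up and 1 down without MYBQKI6 of pool 1 or eGFP of pool 1, 1 up and 0 down without MYBQKI6 of pool 2 and without the block, 2 up and 3 down with eGFP of pool 2 left out, 1 up and 2 down with eGFP of pool 3 left out, and 2 up and 0 down by the brightest probe set. Erbb2, the shared partner of the ErbB receptors, rose by 0.68 (adjusted p = 0.0104). The neurotrophin receptors Ntrk3 and Ntrk2 fell by 0.94 and 0.82, Ror1 by 0.95, Fgfr3 by 0.84, the collagen receptor Ddr1 by 0.79 and Tyro3 by 0.58. Egfr and Pdgfra, which carry the signals of the usual growth factors of these cultures and of glial precursors, differed by -0.55 and 0.70 and were not called (adjusted p = 0.136 and 0.0943). Lifr, the receptor for leukaemia inhibitory factor, stood at 5.94, 5.99 and 6.54 in MYBQKI6 cells, against 7.57, 7.25 and 7.57 in eGFP cells. It fell by 1.30 (SE 0.18, adjusted p = 0.00134), and Stat3, which acts below it, fell by 0.88 (adjusted p = 0.00903). Among 14 genes of this receptor family and its STAT output, these were the 2 falls, Pim1 rose and 11 were not called. Lifr and Pim1 were called in every fit without 1 pool of MYBQKI6 or of eGFP, and Stat3 was not. Of 25 ligands, Kitl rose and Fgf1 fell by 1.13 (adjusted p = 0.0164), though not by its brightest probe set (0.03).

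Most genes of signalling pathways were not called. Among 15 genes of MAPK output 0 rose and 3 fell, the feedback inhibitors Spry1 and Spry4 (-1.11 and -0.77) and Phlda1 (-0.45). No more than 1 fall in the list was called in any fit without 1 pool of MYBQKI6 or of eGFP, and 0 without the block, with the median or with the brightest probe set. Among 18 immediate early genes, Fos stood at 6.88, 6.83 and 7.08 in MYBQKI6 cells, against 8.71, 8.26 and 7.54 in eGFP cells, and fell by 1.24 (SE 0.29, adjusted p = 0.0250). Nr4a1, Egr2 and Ier2 fell by 1.02, 0.91 and 0.65, while the stress factor Atf3 rose by 1.07 (adjusted p = 0.0104). The 4 falls became 0 without MYBQKI6 of pool 1, eGFP of pool 2 or the block, and 1 without MYBQKI6 of pool 2 or eGFP of pool 1. In the Notch pathway Dll4, a ligand, rose by 1.29 (adjusted p = 0.0104), though only by 0.30 in its brightest probe set, and Lfng, which modifies the receptor, fell by 0.76. In the Hedgehog pathway Gli3, mainly a repressor, rose by 1.74 (SE 0.32, adjusted p = 0.00729), and Cdon, a co-receptor, fell by 0.68. In the Wnt pathway Frat2, Lef1 (0.75) and Rnf43 (0.57, but -0.09 in its brightest probe set) rose and Fzd9 (-0.50) fell, of 27 measured. Without the block or without MYBQKI6 of pool 2, the Notch and Hedgehog lists held 0 called genes. The Wnt list held 1 rise and 0 falls in either fit. Among 24 genes of diacylglycerol and phosphoinositide signalling, Dgkg, Itpr1, Pik3r3 and Prkca rose, the last 3 by 0.87, 0.57 and 0.49. Prkcb, Inpp4b and Dgki fell by 1.10, 1.00 and 0.66. In this list 1 rose and 0 fell without MYBQKI6 of pool 2, eGFP of pool 2 or the block, 1 rose and 2 fell without MYBQKI6 of pool 1, 1 rose and 1 fell without eGFP of pool 1, and 2 rose and 3 fell without eGFP of pool 3. Among genes of stress responses, Gadd45a (0.88) rose and Trp53inp1 (-0.46) fell, of 15 p53 targets, and Slc7a11, a cystine transporter, rose by 1.21 (adjusted p = 0.0397) beside Atf3. Gadd45a, Trp53inp1, Slc7a11 and Atf3 were not called without the block or without MYBQKI6 of pool 2. Ndrg1, a stress-responsive gene, rose by 2.22 (adjusted p = 3.45e-04) as the one called gene of 17 for hypoxia and glycolysis.

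Some genes that mark glial lineages fell. Of 18 markers of oligodendrocyte precursors 0 rose and 7 fell, beside 1.99% called lower among all genes, and the list median was -0.25. Another 5 were positive without a call, up to 0.87, and Pdgfra was among these. Sox8, a lineage transcription factor, stood at 6.69, 7.04 and 8.27 in MYBQKI6 cells, against 9.14, 8.85 and 9.37 in eGFP cells, and fell by 1.79 (SE 0.27, adjusted p = 0.00215). Olig1, a lineage factor of high signal, stood at 9.44, 10.09 and 10.75 in MYBQKI6 cells, against 11.06, 11.10 and 11.24 in eGFP cells, and fell by 1.04 (SE 0.23, adjusted p = 0.0189). In both genes pool 3 stood nearest to eGFP. Cspg4, the NG2 proteoglycan, Pcdh15, Lhfpl3, Olig2 and Sox6 also fell, the last 3 by 1.13, 0.59 and 0.54, and 11 markers were not called. The count of 7 was 4 and 2 without MYBQKI6 of pools 1 and 2, 3 and 4 without eGFP of these pools, 2 with the brightest probe set per gene and 1 without the block. Of 14 myelin genes, Cnp rose by 1.02 (adjusted p = 0.00117) and Gjc3, a connexin, fell by 1.28 (adjusted p = 0.00307), and 12 lay below the median gene in eGFP cells.

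Of 18 astrocyte markers 0 rose and 5 fell, beside 1.99% called lower among all genes, and the list median was -0.54. Of the 18, 2 lay below the median gene in eGFP cells. Agt, angiotensinogen, stood at 5.23, 6.02 and 6.66 in MYBQKI6 cells, against 6.62, 8.42 and 8.23 in eGFP cells, and fell by 1.79 (SE 0.24, adjusted p = 0.00117). Gfap, the filament protein, stood at 4.86, 4.30 and 4.83 in MYBQKI6 cells, against 6.09, 6.58 and 5.29 in eGFP cells, and fell by 1.32 (SE 0.25, adjusted p = 0.00919). Hepacam, Fgfr3 and Apoe fell by 1.27, 0.84 and 0.55, and Aldoc differed by -0.88 without a call (adjusted p = 0.319). The count of 5 was 2 and 1 without MYBQKI6 of pools 1 and 2, 2, 2 and 3 without eGFP of pools 1, 2 and 3, 2 with the brightest or the median probe set per gene, and 0 without the block. Markers of neural stem cells, the labelled cell type, were present: the middle one of the 15 stood at 8.04 in MYBQKI6 cells and at 8.71 in eGFP cells, while their median difference was -0.03, with 7 of 15 positive. Of these 15, the filament genes moved in opposite directions, with Vim up by 0.47 (adjusted p = 0.0125) and Nes down by 1.11 (SE 0.18, adjusted p = 0.00306). The Vim rise was lost without MYBQKI6 of pool 2, without eGFP of any pool, and with the median or the brightest probe set. Nes was called in every fit without 1 pool of MYBQKI6 or of eGFP. Neither was called without the block. Of 24 neuronal markers, Elavl4 rose by 0.69 and Map2 fell by 0.51, and 18 lay below the median gene in eGFP cells. The Map2 fall was called in no fit without 1 pool of MYBQKI6 or of eGFP. The Elavl4 rise was lost without MYBQKI6 of pool 1 or 2 or eGFP of pool 2, and no neuronal marker was called without the block.

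Among potassium channels and transmitter receptors, the called genes all fell. Of 19 potassium channels 0 rose and 4 fell, beside 1.99% called lower among all genes, and the list median was -0.30. Kcnma1, the large-conductance calcium-activated channel, stood at 5.12, 5.56 and 6.39 in MYBQKI6 cells, against 7.23, 7.20 and 7.55 in eGFP cells, and fell by 1.64 (SE 0.25, adjusted p = 0.00250). Kcnj10, the inward rectifier of glia, fell by 1.44 (adjusted p = 0.0261), Kcnc1 by 1.07 and Kcnd3 by 0.89. Of 19 receptors for glutamate and GABA 0 rose and 5 fell: Grm5, Grm3, Gabra2, Gria2 and Gria4, by 1.52, 1.20, 1.15, 1.09 and 0.65. Grm5 stood at 4.69, 5.21 and 6.82 in MYBQKI6 cells, against 6.17, 7.21 and 7.89 in eGFP cells, so its groups overlapped while each pool fell. The 5 falls became 3 and 2 without MYBQKI6 of pools 1 and 2, 2, 3 and 3 without eGFP of pools 1, 2 and 3, 2 by the brightest probe set and 0 without the block. The 4 potassium channels became 3 or 4 in the fits without 1 pool of MYBQKI6 or of eGFP, 2 by the brightest probe set and 1 without the block. Ttyh1, a glial membrane protein of the tweety family, fell by 1.62 (SE 0.29, adjusted p = 0.00669).

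Motile cilia genes did not follow Zmynd10 as a list. Of 18 measured, Zmynd10, Ccdc39 (0.89, adjusted p = 0.00536) and Rsph1 (0.89, adjusted p = 0.0230) rose. Foxj1, the master regulator of motile cilia, stood at 4.85, 5.12 and 5.60 in MYBQKI6 cells, against 6.01, 6.19 and 5.94 in eGFP cells, and fell by 0.86 (SE 0.16, adjusted p = 0.00878). Rsph4a fell by 0.46 (adjusted p = 0.0499), but its brightest probe set differed by 0.18. Neither fall was called without MYBQKI6 of pool 1 or 2 or eGFP of pool 2. The list median was 0.10, and 14 of the 18 lay below the median gene in eGFP cells.

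**Figure D5:**
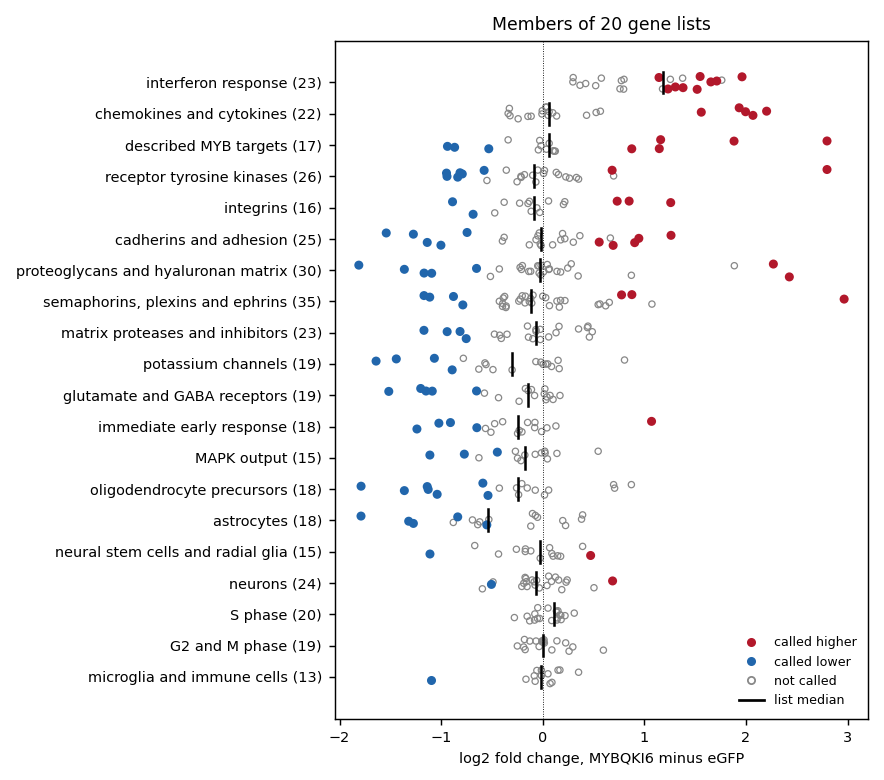
Log2 fold change, MYBQKI6 minus eGFP, of each measured member of 20 gene lists, with the number measured in brackets. Filled points were called higher (red) or lower (blue), open points were not called, and black bars give list medians. The interferon list lies wholly to the right of 0, and the called potassium channels, transmitter receptors, precursor markers and astrocyte markers lie to the left.

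MYBQKI6 was also set against the other MYB constructs, which were measured in the same pools. Against MYBtr, a construct whose suffix the labels do not explain, 0 genes were called by limma, while 1437 had an unadjusted p under 0.05. Against MYBQKI5, the fusion named for the other splice form, 0 were called and 1015 had an unadjusted p under 0.05. A missing call does not show that the constructs act alike, and the intervals give the room that is left. Prune2 had means of 8.70 with MYBQKI6 and 9.16 with MYBtr, a difference of -0.46 (95% confidence interval -0.93 to 0.01), and 7.96 with MYBQKI5, a difference of 0.75 (0.28 to 1.21, adjusted p = 0.997). Kit differed by -0.16 (-0.56 to 0.23) from MYBtr and by 0.25 (-0.15 to 0.64) from MYBQKI5. Igtp differed by 0.39 (-0.10 to 0.87) from MYBtr and by 0.23 (-0.26 to 0.71) from MYBQKI5. Fbxo32 differed by 0.48 (0.01 to 0.95) from MYBtr and by -0.28 (-0.75 to 0.19) from MYBQKI5.

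Against QKItr, a construct without MYB in its name, 1523 genes (6.58%) were called, 877 higher (3.79%) and 646 lower (2.79%) with MYBQKI6. This comparison shares the MYBQKI6 arrays with the one against eGFP, so the values stand side by side. Prune2 was higher by 3.55 than with QKItr, Irgm2 by 3.58, Zmynd10 by 3.01, Sema3c by 3.27 and Mup6 by 3.94. Agt was lower (-2.22), as were Smoc1 (-2.06), Cntn1 (-2.02), Slc6a11 (-1.96) and Xylt1 (-1.95). Slc6a11, a GABA transporter of astrocytes, differed from eGFP by -1.25 without a call (adjusted p = 0.202). Of the interferon list 13 of 23 were called higher than with QKItr. The count against QKItr was 242 without the block, 778 and 515 when MYBQKI6 of pool 1 or pool 2 was left out, 511 without pool 1 of every group and 87 without pool 2 of every group.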

How the data were processed

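Total RNA was biotin-labelled and read on Affymetrix arrays, per the labels' protocols. The deposited values were taken as log2, judged by their range and by array medians that lie close together; how the authors normalized them is not given in the sources used here. Probe sets that named 1 symbol alone were averaged into a gene value (233753 of 269751, median 8 per gene). Symbols were updated through RefSeq: 20875 were current, 2189 were changed through a unique synonym and 88 did not match. No filter on dim signal was used.

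The 2 eGFP repeats per pool were averaged, and 15 columns (5 constructs in 3 pools) were fitted in limma 3.58.1 under R 4.3.3 with data.table, version 1.17.8, with construct and pool as terms and 8 residual degrees of freedom. P-values were adjusted by Benjamini-Hochberg over all genes, and a gene was called under 0.05. Intervals are 95%. The pairing comes from the pool numbers in the sample titles. MYBQKI6 and eGFP of the same pool deviated together from their group means (r = 0.61, 0.41 and 0.60 in pools 1, 2 and 3). Over the 5 constructs, 30 pairs of the same pool had a median r of 0.53, against -0.23 for 60 other pairs.

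Named genes were called, had the same sign in 3 pools and a higher group mean at or above percentile 25: the 15 largest rises and falls, 5 more each way by smallest p, Myb and Qk, up to 6 called members of each list, and 5 each way against other constructs. The rule passed over small RNAs, clones and predicted genes. Further called list members, and uncalled genes given with their adjusted p, were chosen after their values were seen. The comparison, the members and the lists were chosen with earlier results of these data known.

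The fit was tested on simulated data with known changes. It recovered 23.2% of changes of 0.5 on the log2 scale and 95.2% of changes of 1, with 5.21% of calls false on average. A missing call therefore leaves room for changes near 0.5, and for larger ones in genes with a large SE. Ogn, Usp18, Ifi44 and Slc6a11 differed from eGFP by 1.89, 1.76, 1.38 and -1.25 (SE 0.55, 0.52, 0.50 and 0.48). None of these was called by limma (adjusted p = 0.0789, 0.0801, 0.177 and 0.202). Motifs were searched in RefSeq promoters of 17706 genes. Tables and figures were made with Python 3.11.15, pandas 2.3.3 and matplotlib 3.10.9. Alternatives changed 1 setting at a time: the block, the arrays fitted, the moderation, the eGFP repeat, the probe set summary, quantile normalization, a filter on dim genes and each pool left out.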

Additional observations from a re-analysis of the deposited data

Results flagged for a closer look

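Probe sets that name no gene, and so entered no gene value, also changed: 47 of 30892 (0.152%) were called with MYBQKI6 against eGFP, 37 higher and 10 lower. Of 5106 probe sets that name several genes, 6 (0.118%) were called, all 6 higher. Probe sets that name 1 gene were called in 758 of 233753 cases (0.324%).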

How the results depend on the processing

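The count of 1015 genes called against eGFP was 177 with no replicate block, 545 with the median of probe sets per gene and 321 with the brightest probe set per gene. It ran from 291 to 950 in the fits that left out 1 pool of MYBQKI6 or of eGFP. An alternative chosen after seeing the data, without 1 pool of every group, gave 183, 51 and 780 for pools 1, 2 and 3. It lay between 910 and 1201 with MYBQKI6 and eGFP fitted alone, 1 eGFP repeat, trended moderation, quantile normalization or a filter on dim genes. Of 157 called genes followed through the fits, 34 stayed called without the block and 65 in every fit without 1 pool of MYBQKI6 or of eGFP. Some of the 157 are not named above, and some called genes named above, such as Nrp1 and Olig2, are not among them. Within the 157, the sign of 7 turned with the brightest probe set, none of them called: Ada (-0.081), Cacng5 (0.076), Fgf1 (0.025), Itga3 (-0.43), Oas2 (-0.24), Rnf43 (-0.090) and Rsph4a (0.18). Qk, never called, ran from -0.20 to 0.040 in the fits without 1 pool of MYBQKI6 or of eGFP, the highest without MYBQKI6 of pool 1, and stood at 0.066 without pool 1 of every group.

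Against QKItr the count of 1523 was 242 with no replicate block, 884 with the median and 580 with the brightest probe set, 515 to 1325 without 1 pool of MYBQKI6, and 511 and 87 without pools 1 and 2 of every group. Against MYBtr it was 0 in every fit run. Against MYBQKI5 it was 0 to 3 without 1 pool: Styx (2.98) without MYBQKI6 of pool 1, and Mcub, Npr3 and Sema3c without pool 3 of every group, and 0 otherwise. Tested singly, 811 of 269751 probe sets were called against eGFP (0.301%), 305 with no replicate block, 0 with MYBQKI6 and eGFP fitted alone, 3164 with trended and robust moderation, and 71 to 596 without 1 pool. The number of pools limits the precision.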

Other observations

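Several lists held no called gene in the comparison of MYBQKI6 with eGFP by limma: 18 Hox genes and cofactors (median -0.02), 12 Hippo pathway targets (-0.04), 14 markers of vascular cells (0.04), 12 of fibroblasts and meninges (0.00) and 5 STAR family genes (0.16). Of 17 genes of cholesterol and fatty acid synthesis none was called either, while 16 were negative, with a median of -0.32 and list medians of -0.61, -0.19 and -0.18 in pools 1, 2 and 3. Hmgcs1 was lowest at -0.79 (adjusted p = 0.211).

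Among chromatin regulators Ezh2, the methyltransferase of the Polycomb complex, rose by 0.97 (adjusted p = 0.00742) and Kmt2a by 0.74 (adjusted p = 0.00995). Hdac9 fell by 0.58 and Dnmt3b by 0.47, with 17 of 21 not called. None of the chromatin regulators was called without the block, without MYBQKI6 of pool 1 or by the brightest probe set. Among splicing factors, Nova1, a neuronal RNA-binding protein, fell by 0.85 (adjusted p = 0.00274), and Rbfox2 and Elavl4 rose by 0.50 and 0.69, with 25 of 28 not called. Both rises were lost without MYBQKI6 of pool 1 or 2, without eGFP of pool 2 and with the median probe set. Nova1 was called in every fit without 1 pool of MYBQKI6 or of eGFP. No splicing factor was called without the block. Over the autosomes, called genes made up from 3.30% of the genes of chromosome 14 to 6.46% of those of chromosome 5, which holds Kit. They made up 2.65% of chromosome X, and 0 of 17 genes of chromosome Y and 0 of 10 mitochondrial genes were called.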
